A study of Mus musculus with 8 samples.

Results

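The transcription factors described here are the 4 myogenic bHLH factors Myod1, Myog, Myf5 and Myf6, the MEF2 factors Mef2a, Mef2c and Mef2d, the homeodomain factor Six4 and the TEA domain factor Tead4. They were chosen by name: every non-control array probe whose gene name in the files was 1 of these 9 genes was taken, which gave 13 probes out of 55681 and 40 spots out of 59305. Myod1, Myog and Myf5 each had 1 probe printed in 10 spots, Mef2a and Mef2d had 3 probes each, and Myf6, Mef2c, Six4 and Tead4 had 1 probe each. Of the 13 probes, 12 were well above background on all 8 arrays. They measured 8 of the 9 genes, among 13692 genes tested.

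The samples were C2C12 cells, an established mouse myoblast line, taken as myotubes on day 4 of differentiation. There were 4 samples transfected with a control siRNA and 4 with an siRNA against macroH2A1.1, which is 1 of the splice forms of the histone macroH2A1, and all 8 were hybridised as Cy3-labelled RNA on 1-colour Agilent arrays. A characteristic of the treated samples reads as a knockout, while the titles and the design text name siRNA, which was followed. The siRNA sequences and the kind of control siRNA are not given in the sources used here, and all samples come from a single cell line, so the comparison is of that line under these reagents. The 3 Macroh2a1 probes were lower in every macroH2A1.1 siRNA sample than in any control sample, with between 37.5% and 50.6% of the control signal left. The limma adjusted p was 0.0237 to 0.0337 with samples paired by replicate number and 0.0529 to 0.136 without pairing. Each of these probes matches more than 1 Macroh2a1 transcript, and which splice forms they read was not analysed. The values therefore cannot be read as the level of macroH2A1.1 alone.

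The myogenic bHLH factors bind DNA as dimers with the widely expressed E proteins, at the E-box CANNTG. Myf5 and Myod1 commit cells to the muscle lineage, Myog drives terminal differentiation and fusion, and Myf6, also called MRF4, is the late member, best known from maturing fibres. MEF2 proteins do not start the programme but act with the bHLH factors on muscle genes through an A/T-rich site, Six4 and its relatives use, with EYA coactivators, the MEF3 site, and TEAD proteins bind the MCAT element.

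The probe sequences below identify what was measured for the genes on which the results turn. The first 30 of 60 bases are given for the probes of Myf6, Myod1, Tead4 and Myog. The Mef2c probe and 1 Mef2d probe are given whole, because their aligned span in the genome is longer than the probe, so they cross a splice junction. They run 5′ to 3′ in lower case as the files give them, and no base is singled out.
Myf6 probe, chr10:106930237-106930296 (mm9, minus strand): tttaaaaagaaacttctcaccacctcaagt
Myod1 probe, chr7:53633956-53634015 (mm9, plus strand): ttttgttgttgttgttgtagtccttcagtt
Tead4 probe, chr6:128177161-128177220 (mm9, minus strand): ggacagtgcctcacacagtgctgagcacat
Myog probe, chr1:136188874-136188933 (mm9, plus strand): atcttgggaaccttccagtgctttgtgtat
Mef2c junction probe, chr13:83772788-83775025 (mm9, plus strand): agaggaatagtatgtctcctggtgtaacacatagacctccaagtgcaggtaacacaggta
Mef2d junction probe, chr3:87972214-87972560 (mm9, plus strand): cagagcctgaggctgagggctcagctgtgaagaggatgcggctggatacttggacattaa
The Mef2c probe's 60 bases spread over 2238 bases of chromosome 13, and those of the Mef2d junction probe over 347 bases of chromosome 3. The Myf5 probe lies 10203 bases from the Myf6 probe on chromosome 10, and no other protein-coding gene is annotated between these neighbours in the RefSeq table. Whether the other probes lie in coding sequence or in a UTR was not analysed here.

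The Myog promoter is given as background, since its proximal region is a textbook example of combined E-box, MEF2 and MEF3 sites. The 250 bases before its start (RefSeq, GRCm38.p6, chr1:134289754-134290003, plus strand) follow, with matches in capitals.
Myog promoter: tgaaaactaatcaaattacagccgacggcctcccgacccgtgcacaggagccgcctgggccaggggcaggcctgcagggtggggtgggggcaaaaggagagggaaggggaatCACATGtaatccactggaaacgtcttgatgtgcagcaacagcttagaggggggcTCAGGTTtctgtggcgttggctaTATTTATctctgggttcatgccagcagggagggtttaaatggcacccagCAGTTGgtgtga
The capitals mark, in order, the E-box CACATG, whose first base lies 138 bases before the start, the MEF3 letters TCAGGTT at 84 bases, the A/T-rich core TATTTAT at 61 bases and the E-box CAGTTG at 12 bases. Both strands were searched, the core TATTTAT was chosen with this promoter in view, and none of these matches overlap. Over 32851 promoter windows of the same length, 66.2% held CANNTG, 5.17% held TATTTAT, 3.49% held TCAGGTT and 12.6% held the MCAT letters CATTCC. The table held promoters of 6 of the 9 genes (9 windows). The MEF3 letters also occurred in 1 of the Six4 windows, 97 bases before its start, and in 1 of the Mef2c windows, 248 bases before its start. That Mef2c window also held the MCAT letters, 75 bases before its start. A match describes letters, and no binding was measured.

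Myf6 had the largest difference among the 8 measured genes, being 4.50-fold higher with macroH2A1.1 siRNA, while Myod1 and Tead4 were higher by smaller amounts and Myog, Mef2a, Mef2c, Mef2d and Six4 did not pass the test. Array values are log2 signal relative to the 75th percentile of the same array, and differences are macroH2A1.1 siRNA minus control siRNA on that scale. In whole cultures, fewer cells of a type and less RNA per cell cannot be told apart. Without pairing, limma called 3 of 13692 genes at a threshold of 0.05 after Benjamini-Hochberg adjustment over all genes (0.0219%), and 0 of the 8 measured factors. At an unadjusted p under 0.05, 1672 genes passed. The labels state no pairing, but replicates of the same number deviated together in all 4 pairs. The fit with replicate number as a block (the paired fit) called 1114 genes (8.14%), 587 of them higher (4.29%). In the paired fit 3 of the 8 measured factors were called, Myf6, Tead4 and Myod1, all higher. "Rose" and "fell" refer to that paired fit in the text that follows. Left without pair 2, which holds the array farthest from the others on the first principal component, the paired fit called 1 of the 8, Myf6. Without pair 1 or without pair 3 it called 0 of the 8 and 0 of all genes, and without pair 4 it called 2 of the 8. With no filter on dim probes, which brings in Myf5, it also called 0 of the 9 factors and 0 of 23684 genes. The limma adjusted p was then 0.107 for Myf6, 0.141 for Myod1 and 0.148 for Tead4.

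**Figure D1:**
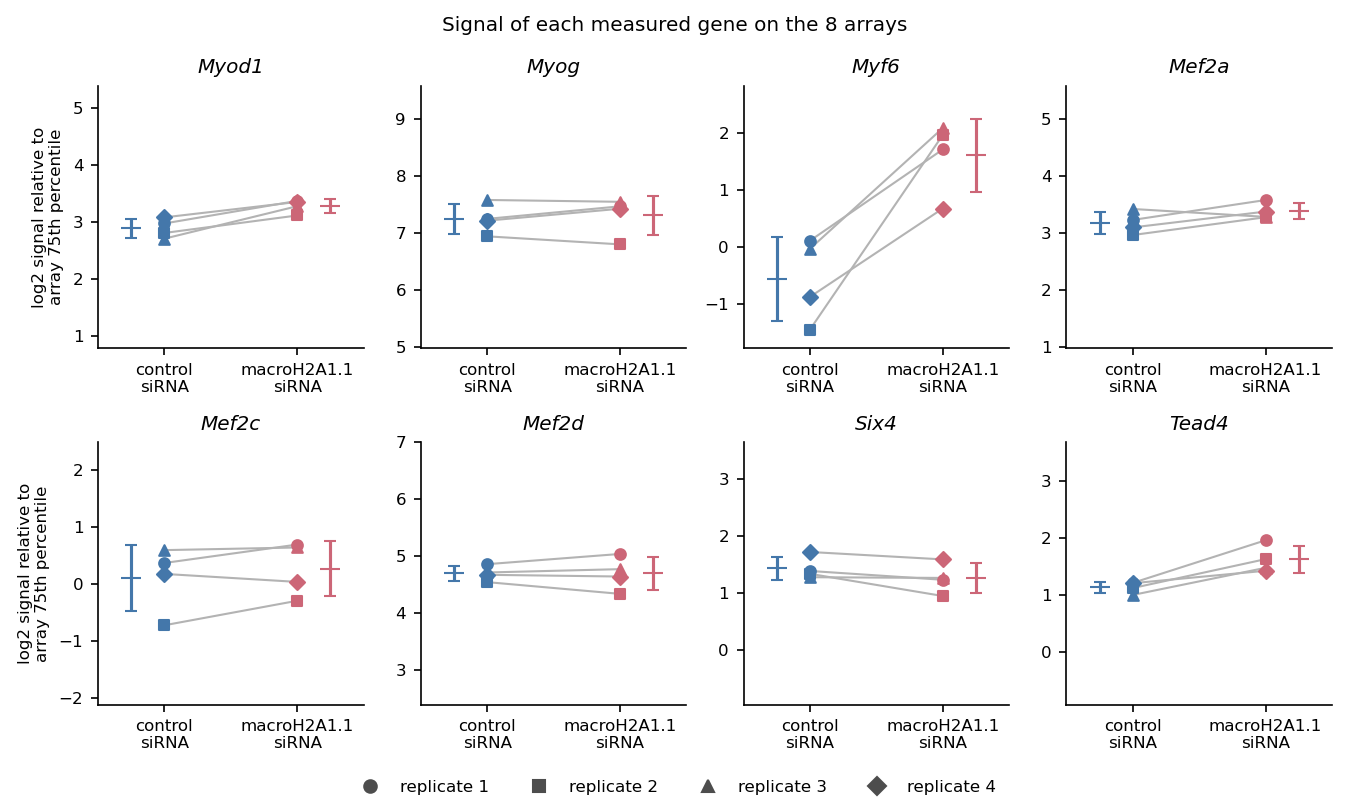
Scaled log2 signal (array 75th percentile at 0) for the 8 measured genes, with a point per array, grey lines joining samples of the same replicate number, and bars beside them for the mean ± SD (n = 4). Each panel spans the same number of log2 units; the groups are separate for Myf6, Myod1 and Tead4 and overlap for the other 5 genes.

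Among the bHLH factors, Myf6 was at 0.11, -1.45, -0.03 and -0.87 in control replicates 1 to 4 and at 1.71, 1.97, 2.09 and 0.68 with macroH2A1.1 siRNA. The lowest treated sample lay above the highest control sample. The means were -0.56 ± 0.73 and 1.61 ± 0.64 (SD, n = 4 each), and the difference of 2.17 had a standard error of 0.32 in the paired fit (95% interval 1.37 to 2.98, limma adjusted p = 0.0260). Without pairing the standard error was 0.42 and the limma adjusted p was 0.125. Within pairs 1 to 4 the difference was 1.60, 3.41, 2.12 and 1.55, so pair 2 gave the largest value and the other 3 pairs were also above 1.5. Leaving out pair 2 gave 1.76 (limma adjusted p = 0.0406), whereas the call was lost without pair 1 (2.36, limma adjusted p = 0.0847) or without pair 3 (2.19, limma adjusted p = 0.0984). The size of the Myf6 difference lay at the 99.6th percentile of all genes tested. Before scaling, the processed signal of Myf6 was between 107.2 and 359 in control samples and between 426 and 1214 in the treated samples, so the groups were also separate in intensity. Myf6 was read from 1 spot per array.

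Myod1 rose by 0.39, or 1.31-fold. Its control values were 2.98, 2.81, 2.71 and 3.09, and its values with macroH2A1.1 siRNA were 3.38, 3.12, 3.28 and 3.36. The groups were separate, but by only a small gap between the highest control and the lowest treated sample. The means were 2.90 ± 0.17 and 3.28 ± 0.12 (SD, n = 4 each). The paired standard error was 0.072 (95% interval 0.21 to 0.56, limma adjusted p = 0.0392), and without pairing the limma adjusted p was 0.228. All 4 pairs were higher, by 0.40, 0.31, 0.57 and 0.27. The call was lost when any of the 4 pairs was left out (limma adjusted p between 0.0635 and 0.145) and when arrays were centred on the median (0.37, limma adjusted p = 0.0686). The scaling bears on this gene: the unscaled signal of Myod1 was between 1697 and 2626 in control samples and between 2493 and 2734 in treated samples, which overlap, while the arrays' 75th percentiles were between 258 and 332 and between 255 and 311. The 10 spots of Myod1 on an array had a median SD of 0.082, less than the SD between samples of either group.

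Myog, the differentiation factor, overlapped between groups. It read 7.25, 6.94, 7.58 and 7.22 in control samples and 7.47, 6.80, 7.55 and 7.43 with macroH2A1.1 siRNA. Its difference of 0.064 had a paired 95% interval of -0.15 to 0.27 (limma adjusted p = 0.659), which on the linear scale covers 0.904-fold to 1.21-fold. It was higher in 2 of the 4 pairs. Spots of this probe on an array had a median SD of 0.058, and no spot was saturated. Myf5, the early commitment factor, was not well above background on any of the 8 arrays: its signal was between 2.98 and 4.86, against 11.9 to 15.8 for the lowest signals well above background, and no fold is given.

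Whether 2 bHLH factors changed unequally was tested on their difference within each array. The change of Myf6 exceeded that of Myog by 2.11 (95% interval over pairs 0.46 to 3.75) and that of Myod1 by 1.79 (0.36 to 3.21), and each was above 0 in all 4 pairs. For both, the two-sided exact permutation test ignoring pairs gave p = 0.0286, the smallest that 4 against 4 allows, and 0.0715 after adjustment over the 5 comparisons made. Within pairs the exact test gave p = 0.125, again the smallest possible, and 0.208 after adjustment. The change of Myod1 exceeded that of Myog by 0.32 (-0.07 to 0.71), with an exact permutation p of 0.143 and a value above 0 in all 4 pairs.

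**Figure D2:**
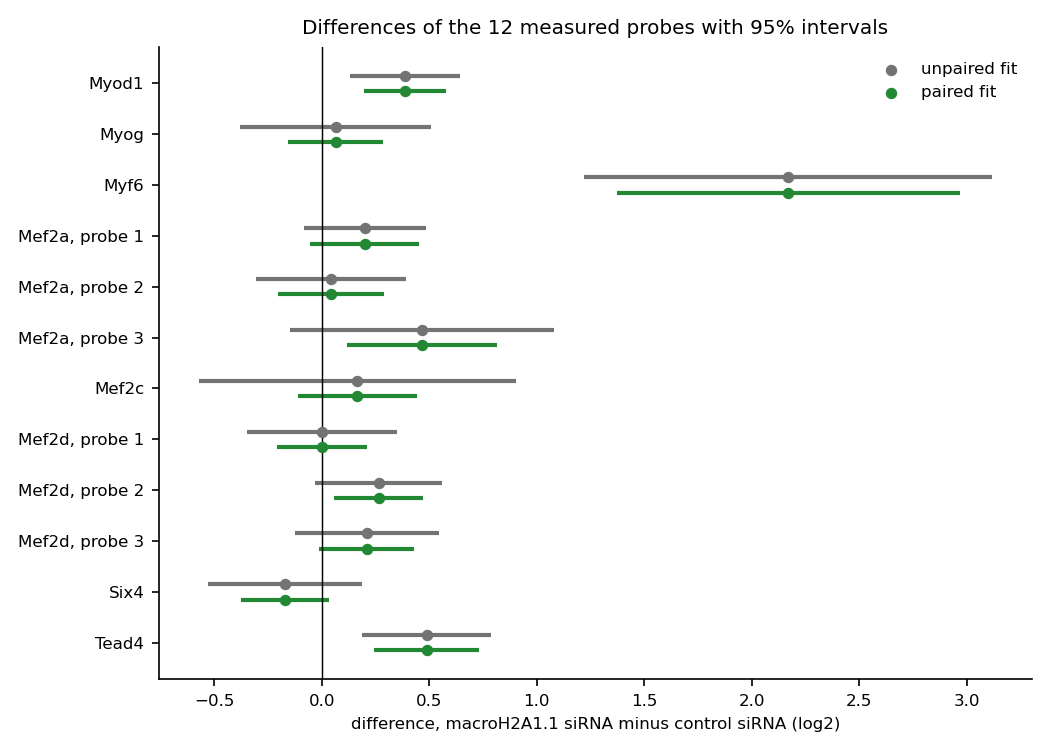
Difference between macroH2A1.1 siRNA and control siRNA (log2) for each of the 12 probes above background, with 95% intervals from the unpaired fit (grey) and the paired fit (green). The Myf6 intervals lie to the right of all others, and the intervals of Myod1 and Tead4 lie above 0 in both fits.

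The MEF2 factors did not pass the test in either fit. Mef2a, read by its brightest probe, was at 3.23, 2.96, 3.42 and 3.09 in control samples and 3.57, 3.27, 3.28 and 3.37 in treated samples, a difference of 0.20 (paired 95% interval -0.05 to 0.45, limma adjusted p = 0.255). Pair 3 was lower and the other 3 pairs were higher. Its other probes differed by 0.044 and 0.47, and the second of these was higher in all 4 pairs (paired limma adjusted p = 0.127 over all probes). The 3 Mef2a probes therefore gave unequal sizes: the change of the probe at 0.47 exceeded that of the probe at 0.044 in every pair, by 0.12 to 0.60.

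Mef2c, a MEF2 factor of differentiating muscle, was measured only across its splice junction. It read 0.37, -0.72, 0.60 and 0.18 in control samples and 0.70, -0.29, 0.65 and 0.04 in treated samples. Replicate 2 was the lowest sample of both groups, and the groups overlapped. The difference was 0.16 (paired 95% interval -0.11 to 0.44, limma adjusted p = 0.377).

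Mef2d differed by 0.00 on its brightest probe (paired 95% interval -0.20 to 0.20, limma adjusted p = 0.998), with 4.70 ± 0.13 in control samples and 4.70 ± 0.29 in treated samples (SD, n = 4 each). Its junction probe was higher in all 4 pairs, by 0.32, 0.05, 0.42 and 0.26 (mean 0.26, paired 95% interval 0.058 to 0.47), but did not pass over all probes (paired limma adjusted p = 0.136). The remaining probe was higher in 3 of 4 pairs, by 0.21 on average. The brightest probe changed less than the junction probe in all 4 pairs, by 0.14 to 0.37, and a value for Mef2d therefore depends on which probe is read. The mean of the 3 probes gave 0.16 (paired limma adjusted p = 0.205). With each gene read by its brightest probe, the change of Mef2c minus that of Mef2a was -0.04 (95% interval -0.46 to 0.39, exact permutation p = 0.943). The change of Mef2c minus that of Mef2d was 0.16 (-0.36 to 0.69, exact permutation p = 0.657). The other probes of Mef2a and Mef2d were not tested against Mef2c.

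Tested probe by probe, 1 of the 12 factor probes was called in the paired fit, that of Myf6 (limma adjusted p = 0.0376), beside 3.14% of 24988 probes. Without pairing 0 of the 12 were called, beside 0.004%. Myod1 and Tead4 had limma adjusted p = 0.0606 and 0.0631 over probes in the paired fit, so their calls held only in the fit over genes.

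Tead4 rose by 0.49, or 1.40-fold. It was at 1.21, 1.12, 1.0 and 1.20 in control samples and at 1.96, 1.62, 1.47 and 1.42 with macroH2A1.1 siRNA, so the groups were separate. The means were 1.13 ± 0.099 and 1.62 ± 0.24 (SD, n = 4 each). The paired standard error was 0.095 (95% interval 0.25 to 0.72, limma adjusted p = 0.0430), and without pairing the limma adjusted p was 0.210. Within pairs the difference was 0.75, 0.51, 0.48 and 0.22. The call was lost with median centring (limma adjusted p = 0.0539) and without pair 1, 2 or 3 (0.123 to 0.136). As with Myod1, the unscaled signals overlapped, at 515 to 766 in control and 709 to 989 in treated samples.

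Six4 was the only measured factor lower in all 4 pairs, by 0.15, 0.39, 0.01 and 0.13, and it did not pass. It was at 1.38, 1.33, 1.27 and 1.72 in control samples and at 1.23, 0.94, 1.26 and 1.59 in treated samples, and the groups overlapped. The difference was -0.17, a signal 1.13-fold higher in control samples (paired 95% interval -0.37 to 0.02, limma adjusted p = 0.223).

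Over the 8 measured factors, Myod1, Myf6 and Tead4 had groups that did not overlap, all higher, where 7.93% of genes had non-overlapping groups in either direction. The 3 of 8 called in the paired fit stand beside 8.14% of all genes. The median difference over all genes was 0.0048, with 51.0% of genes above 0.

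The proteins that work with these factors were described from lists of their partners, inhibitors and target genes, chosen with earlier results of these data known. The counts called in each list stand beside 4.29% of all genes called higher and 8.14% called in either direction. The E proteins, dimer partners of the bHLH factors, were all measured: 0 of 3 passed, with a median difference of 0.02, and Tcf4 at -0.09 and Tcf12 at 0.02. Of 15 listed inhibitors of the bHLH factors 13 were measured, 1 rose and 2 fell, and their median difference was -0.13. Snai1, a repressor that occupies E-boxes, fell by 0.67 (limma adjusted p = 0.0445), and its groups were separate. Twist2, which competes for E proteins, fell by 0.40 (limma adjusted p = 0.0464), and Heyl, a Notch-responsive repressor, rose by 0.37 (limma adjusted p = 0.0359).

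All 17 listed MEF2 partners and repressors were measured, and 2 rose and 0 fell, beside 8.14% of all genes called in either direction. The list median was 0.01. Mamstr, a MEF2-interacting coactivator also called MASTR, was at -1.03, -1.52, -2.67 and -1.51 in control samples and at -0.14, -0.38, -1.64 and -0.90 in treated samples. It was higher in each pair by 0.61 to 1.14 although the groups overlapped, and its mean difference was 0.92 (limma adjusted p = 0.0157). Smarcd3, the BAF60C subunit of SWI/SNF that works with Myod1, rose by 0.36 (limma adjusted p = 0.0382) with separate groups. Of 9 relatives and cofactors of Six4 (its own family, EYA and DACH) 5 were measured. Eya4, a coactivator of Six4 and its relatives, fell by 0.51 (limma adjusted p = 0.0293), with control samples at 0.81 to 1.1 and treated samples at 0.18 to 0.61. The list median was -0.08 and no other member passed. In the lists of inhibitors, of MEF2 partners and of relatives of Six4, 0 genes passed when pair 1, 2 or 3 was left out, so the calls of Snai1, Twist2, Heyl, Mamstr, Smarcd3 and Eya4 were lost in each case. Over all genes, 0 were then called without pair 1 or pair 3 and 139 without pair 2. Without pair 4, 598 genes were called. Among them 1 inhibitor and 1 gene of the Six4 list were lower, and of the MEF2 list 1 was higher and 1 lower.

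For the TEAD family and its cofactors, 8 of 9 genes were measured and 0 passed, with a median of -0.01. Vgll4, a TEAD cofactor that competes with YAP, was at -0.20 (limma adjusted p = 0.156), and Vgll2, the muscle cofactor, at 0.10 (limma adjusted p = 0.721). Tead4 therefore passed while the other listed TEAD genes and cofactors did not, and the differences between them were not tested. Of the muscle precursor factors, Pax3 and Pax7 were not well above background on all arrays of either group, Met was at 0.28 (limma adjusted p = 0.0720) and Msx1 at -0.02.

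Genes listed as targets of the bHLH and MEF2 factors through E-boxes or MEF2 sites were mostly higher. Because that list was chosen with earlier results of these data known, its counts are a description and not a test. Of 33 listed 32 were measured, 28 were above 0, 16 rose and 0 fell. The 16 stand beside 4.29% of all genes called higher. The list's median difference was 0.39 beside 0.0048 over all genes. The largest that passed, by the paired difference, were Slc2a4, the GLUT4 glucose transporter (0.85, limma adjusted p = 0.0279), Lmod2, which elongates thin filaments (0.78, limma adjusted p = 0.0169), Myoz2, a Z-disc protein (0.62, limma adjusted p = 0.0148), and Des, the intermediate filament desmin (0.59, limma adjusted p = 0.0244). Among these 4, only Des had separate groups. Srl, a protein of the sarcoplasmic reticulum that also rose, lacked a value in treated replicate 2 and was at 0.48 over the other 3 pairs, or 0.61 between the groups' means. Without pair 2, 0 of the 32 passed, 29 were above 0 and the median was 0.35, and the count was also 0 without pair 1 or pair 3 and 7 without pair 4. In the unpaired fit no gene of any of these 7 lists passed.

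**Figure D3:**
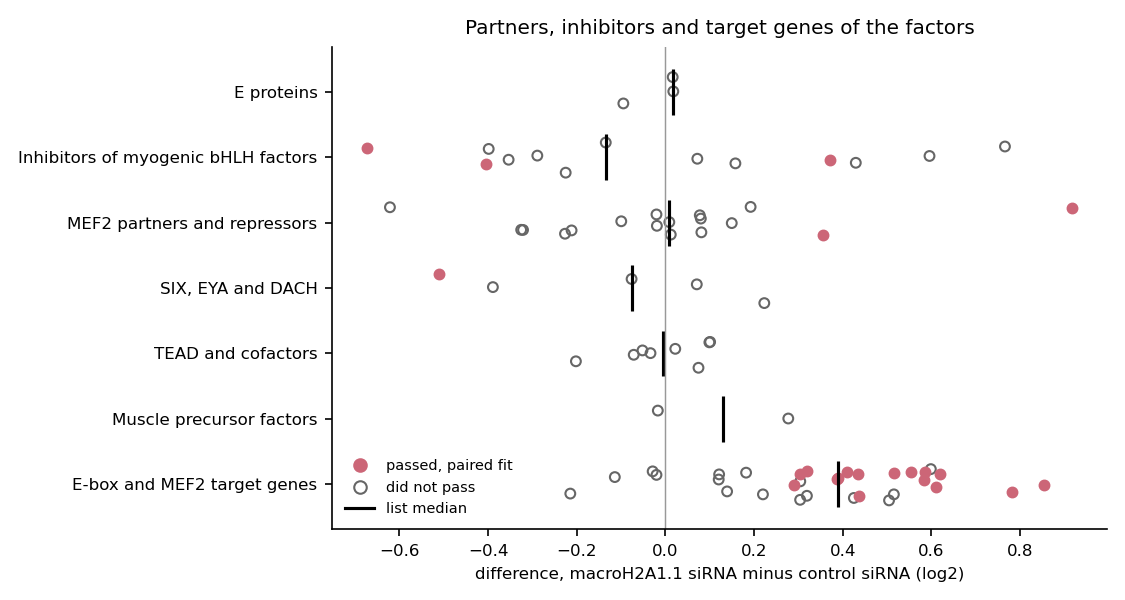
Difference between macroH2A1.1 siRNA and control siRNA (log2, x axis) of each measured gene in the 7 lists of partners, inhibitors and target genes, with filled points for genes past the threshold in the paired fit and a black line at the list median. The target genes lie mostly to the right of 0 (28 of 32), while the other lists spread on both sides.

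Markers of the culture's state, in lists also chosen with earlier results of these data known, were set beside the 3 factors that rose. All 10 listed myotube markers, most of them also on the target list, were measured and above 0, and 6 rose. Their median difference was 0.36, 0.39, 0.29 and 0.28 in pairs 1 to 4. The 9 measured interferon response genes of 11 were all above 0, and 5 rose. Of these 5, Usp18, Oasl1, Ifit1 and Cxcl10 were at -6.05, -6.01, -4.57 and -4.58 in control replicate 4. The lowest signal well above background on that array was -4.37. Rsad2, which did not pass, was at -4.86 in control replicate 3, where that lowest signal was -4.36. The probes of Usp18, Oasl1, Ifit1, Cxcl10 and Rsad2 were thus kept only through the treated group, so their being higher is in part set by the filter. The median difference of the 9 genes, with these included, was 1.62, 3.29, 3.43 and 1.15 in the 4 pairs. Pairs 2 and 3 were also the pairs with the largest Myf6 differences. Of the cycling cell markers 0 of 8 passed, with a median of -0.05. Control replicate 2 and treated replicate 2, at 1.13 and 1.29 relative to each gene's mean, were above all other samples in that list. Of 5 muscle precursor markers 3 were measured, and 2 of these fell, Cd34 by 0.63 and Spry1 by 0.53, while Sdc4 was at 0.03 and Pax3 and Pax7 were not well above background. These counts stand beside 4.29% of all genes called higher and 8.14% called in either direction. In the unpaired fit none of these markers passed, and in the paired fit 0 myotube and 0 interferon markers passed without pair 1, 2 or 3, against 1 and 4 without pair 4. The part of the myotube, interferon and precursor genes in the differences of Myf6, Myod1 and Tead4 was not tested.

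For other cell types, several listed markers were not well above background on all arrays of either group: Ptprc of macrophages, Cdh5 and Tek of endothelium, Rbfox3, Elavl3 and Syt1 of neurons, Sp7 and Ibsp of bone, and Adipoq, Plin1, Cidec, Cfd and Lep of adipocytes. Others were measured, 5 of 6 for macrophages and 2 of 4 for endothelium. For bone and cartilage 3 of 7 were measured, and for neurons 1 of 4. The brightest in control samples were Itgam of macrophages at 4.18 to 4.32, Kdr of endothelium at 3.12 to 3.67 and Snap25 of neurons at 3.73 to 4.16. The other measured macrophage markers were lower: Csf1r at 0.84 to 1.46, Cd14 at -0.01 to 0.53, Cd68 at -1.90 to -1.17 and Adgre1 at -4.20 to -3.64. Pecam1, the other measured endothelial marker, was at -3.68 to -3.40. Cd68 was higher by 1.32 but did not pass (paired limma adjusted p = 0.0892), with 0.57, 2.12, 2.26 and 0.33 in pairs 1 to 4. The only measured adipocyte marker of 6 was Fabp4, which rose by 1.42. Fabp4 was at -5.21 in control replicate 4, where the lowest signal well above background was -4.37. It was thus kept only through the treated group, so its being higher is in part set by the filter. Of 5 measured fibroblast markers 1 fell, Postn by 1.0, and 0 of 5 macrophage, 0 of 3 bone and cartilage, 0 of 2 endothelial and 0 of 1 neuronal markers passed. The counts stand beside 4.29% of all genes called higher and 8.14% called in either direction. In the unpaired fit none of these markers passed. Their part in the differences of the factors was not tested. The median level of the measured fibroblast markers, relative to each gene's mean, was -0.25 to 0.55 in control samples and -0.54 to 0.60 in treated samples.

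**Figure D4:**
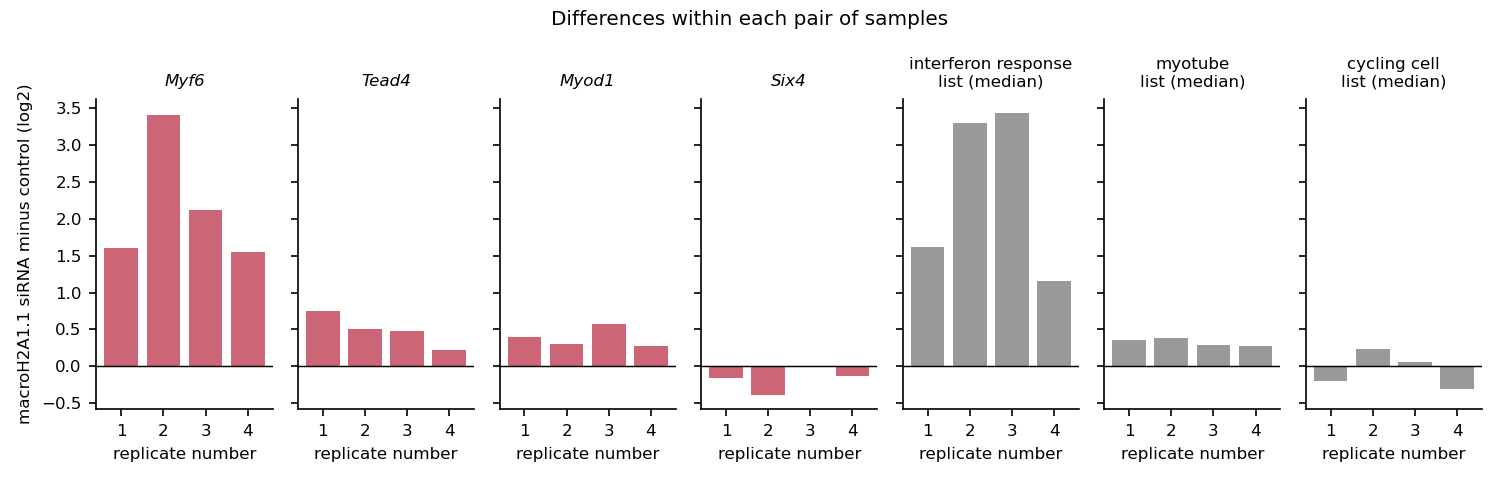
Difference between the macroH2A1.1 siRNA and control sample of each replicate number (log2) for 4 factors (red) and for the median of 3 marker lists (grey). Myf6, Tead4 and Myod1 are above 0 in all 4 pairs and Six4 below, and the interferon list shares with Myf6 its larger bars in pairs 2 and 3. Several genes of the interferon list were kept only through the treated group, so the height of its bars is in part set by the filter.

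Genes whose pattern over the 8 arrays was most like that of each factor were found by Pearson correlation over all 8 arrays, which share the group difference. Closest to Myf6 were Ckmt2, the sarcomeric mitochondrial creatine kinase (r = 0.977), Tceal7 (r = 0.974) and Fabp3, a fatty acid carrier of muscle (r = 0.969). The treated samples exceeded controls by 4.20, 2.09 and 1.62 for these 3 genes, and within the 4 control arrays alone their r with Myf6 was 0.884, 0.957 and 0.993, and within the 4 treated arrays 0.970, 0.882 and 0.781. Closest to Tead4 were Ercc4, Gldc and Mettl27 (r = 0.989, 0.976 and 0.975), of which Gldc, the glycine decarboxylase, was higher by 1.18. Closest to Myod1 were Mrtfb, an SRF coactivator, Smim11 and Rufy1 (r = 0.972, 0.968 and 0.961).

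For the factors that did not pass, the closest genes were found in the same way. Myog was most like Fzd7, a Wnt receptor, Fitm2 and Frat2 (r = 0.992, 0.985 and 0.980), and Mef2c was most like Cavin4, a muscle caveolar protein, Atl2 and Prpf18 (r = 0.981, 0.973 and 0.970). Mef2a was most like Ptgds, Vps13c and Ctr9 (r = 0.987, 0.967 and 0.959). Mef2d was most like Rep15, Zfp82 and Triobp (r = 0.978, 0.973 and 0.963), and Six4 was most like Fbf1, Faap100 and Hltf (r = 0.986, 0.979 and 0.969). These are the highest of all correlations over 8 points, given as a description with no test.

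The arrays lay on 1 slide, with between 46.9% and 49.8% of spots well above background and 0 saturated spots, and correlated at 0.969 to 0.993. On the first principal component (35.0% of the variance), treated replicate 2 stood at 60.2 and the other 7 arrays between -27.4 and 7.75. Each array column on the slide held 1 group. With 4 arrays a group, small differences cannot be resolved.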

How the data were processed

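RNA from 8 C2C12 samples (500 ng each, per the labels) was read on 1-colour arrays. The authors obtained spot intensity from scans with Agilent Feature Extraction 10.7.3.1 (background subtracted, probes placed on mm9), per the file headers. The authors' deposited series values, on a log2 scale that the table does not state, served as an alternative and followed each array's own mean signal (r 0.9976 to 0.9995).

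Log2 processed intensity was scaled to the 75th percentile of its array. Control spots were dropped, outlier spots (143 to 236 per array) set missing, and spots of a probe averaged. Of 55681 probes, 32812 had a symbol: 27509 through accession in the RefSeq gene table (GRCm38.p6, for names), 3549 through a current and 404 through an older symbol, and 1350 as named in the file. No symbol was found for 22869. A probe was kept if well above background throughout 1 group or both (24988 probes), and the brightest kept probe stood for its gene (13692 genes). Promoter sequences came from RefSeq. The comparison used lmFit and eBayes of limma 3.58.1 (R 4.3.3, two-sided), once unpaired and once blocked on replicate number.

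The labels number the replicates alike in both groups but state no pairing. Deviations from group means correlated between same-numbered samples at 0.611, 0.551, 0.661 and 0.411. By the rule that each exceeds 0.1 the numbers were taken to pair the samples, so the pairing was inferred from these same data. Same-numbered arrays are neighbours on the slide, so culture and place cannot be told apart. Replicates are biological by the labels, which do not describe the cultures, and p-values reflect only the spread seen between these samples.

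The factors and lists (7 pathway, 10 marker) were chosen with earlier results of these data known. All factors were named, with up to 4 genes per pathway list past the threshold, or up to 2 where none passed, and the 3 most correlated genes per factor. Srl and the marker genes were named outside that rule, after their values were seen. No column of another series was used (0 columns). The fits were tested on simulated data. Alternatives were other background correction, scaling, filter, probe choice, blocks, eBayes settings and left-out arrays. Python 3.11.15, pandas 2.3.3 and matplotlib 3.10.9 drew the plots.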

Additional observations from a re-analysis of the deposited data

Results flagged for a closer look

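Within-group spread was checked in 26 groups of 4 arrays (13 probes in each siRNA group), and 2 had a sample far from the others by Dixon's criterion; chance alone flags about 5% of groups. Myog in treated replicate 2 was at 6.80, with the other 3 treated samples between 7.43 and 7.55, a gap of 0.837 of the group's range. The Mef2d junction probe in treated replicate 2 was at -0.35, with a gap of 0.907 of the range. Both come from the array that also lies apart on the first principal component. Control replicate 2 was the lowest control sample for Myog as well, at 6.94.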

How the results depend on the processing

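The unpaired count of 3 became 1 with median centring, 8 with the array row as a block, 1114 with the replicate block, and 0 to 11 on leaving out an array. Among factors, 0 genes and 0 probes called became 3 and 1 with the replicate block, and stayed 0 without any 1 array. The paired count of 1114 became 1894 with normexp, 1714 with the series values, 2077 with trended robust eBayes, 0 with no filter on dim probes, and 0 to 598 without a pair. The 3 paired factors became 1 with median centring, 0 with no filter and 0 to 2 without a pair. The 1 called probe became 0 without any pair (0 to 0). Without replicate 2 of both groups the paired count was 139.

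The differences of Myf6, Myod1, Tead4, Mef2a and Six4 kept their direction in all alternatives, 19 to the unpaired fit and 13 to the paired fit for each. The 19 include the array row block and the replicate block, which is the paired fit itself. Mef2d, at 0.00, turned to -0.021 with normexp, -0.016 with quantile normalization, -0.018 with median centring, -0.013 with the series values and -0.0028 with the percentile over probes detected on all arrays, chosen after seeing the data, in both fits. Leaving out an array moved Mef2d between -0.11 and 0.12 (-0.059 to 0.069 without a pair), Myog between -0.037 and 0.23, and Mef2c between -0.11 and 0.35. Without control replicate 2 both Myog and Mef2c were below 0. The causes were not tested.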
